A study of Mus musculus with 48 samples.

Results

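The calcium and magnesium handling genes of the kidney tubule were followed over the day in mouse kidney, at the level of transcripts and of their translation. They were a fixed list of 10 named genes: Trpv5, Calb1, S100g, Slc8a1, Atp2b1, Trpm6, Trpm7, Cnnm2, Casr and Umod. All 10 had values in both assays, among 12423 genes with values in both, and all 10 were among the 11863 genes that were tested. Kidneys came from male C57BL/6JRj mice of 11 to 12 weeks, entrained for 2 weeks to 12 h of light and 12 h of dark, with lights on at Zeitgeber time ZT00 and off at ZT12. Organs were taken every 2 h from ZT00 to ZT22. All mice were of this strain and the labels name no treatment, so the timepoints are the only groups, each with 2 replicate pools of 2 mice. Each of the 24 pools gave 1 RNA-seq library, which measures transcript abundance, and 1 RPF-seq library, in which the mRNA fragments protected by ribosomes are sequenced to measure translation.

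Filtered calcium is recovered along the nephron by several routes. In the distal convoluted and connecting tubule it crosses the cell, entering through the apical channel TRPV5, bound in the cytosol by calbindin-D28K (Calb1) and calbindin-D9k (S100g), and leaving on the blood side through the sodium-calcium exchanger NCX1 (Slc8a1) and the calcium pump PMCA1 (Atp2b1). Magnesium enters distal convoluted tubule cells through TRPM6, a channel joined to a kinase whose closest relative TRPM7 is made in most cells, and CNNM2 is a basolateral protein needed for magnesium balance. In the thick ascending limb both ions pass between the cells, the calcium-sensing receptor (Casr) restrains this path, and uromodulin (Umod) is the most abundant protein that this segment secretes into urine.

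The values are RPKM, reads on the coding sequence scaled to its length and to the size of the library, as the authors computed them. Multiplied by the coding length, 98.5% to 98.7% of the checked values per library fell within 0.02 of whole multiples of the worth of 1 read, and so did all 24 values of each of the 10 genes in each assay. The depth recovered in this way varied 3.41-fold between the RNA-seq libraries and 2.25-fold between the RPF-seq libraries. The lowest single value among the 10 genes was Trpm6 in RPF-seq with 182 reads, and the highest was Umod in RPF-seq with 246101 reads. The clock gene Arntl, an activator at the core of the circadian clock, peaked at ZT22.5 with a 24.98-fold range in RNA-seq, and its target Dbp peaked at ZT10.5 with a 42.1-fold range. Markers of proximal tubule, thick ascending limb, distal convoluted tubule and collecting duct were present in every library, whereas the 3 adrenal markers had no rows in either assay. The summed level of the fat markers was low but varied widely, from 0.25 to 6.05 RPKM in RNA-seq, with fitted folds of 4.18 for transcripts and 5.30 for footprints. For the liver markers these folds were 1.88 and 2.07, and for the blood marker Hba-a1 2.09 and 1.57. The part of such tissue in the results was not tested. These are bulk samples, in which fewer cells of a type and less RNA per cell cannot be told apart.

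Pool 2 at ZT10 stood apart for these genes. In RNA-seq, 6 of the 10 genes had their widest difference between replicates at ZT10, 4 being higher and 2 lower in replicate 2, and in RPF-seq 5 of 10 did, 3 higher and 2 lower. At ZT10, Calb1 was listed at 289 RPKM in replicate 1 and 492 RPKM in replicate 2 in RNA-seq, and at 477 and 878 RPKM in RPF-seq. Umod went the other way, with 2683 and 1978 RPKM in RNA-seq and 4083 and 3145 RPKM in RPF-seq. Slc12a3, the defining cotransporter of the distal convoluted tubule, was at 1.03 times as much in replicate 2 in RNA-seq and 1.145 times in RPF-seq, and Pvalb, the other marker of that segment, at 1.18 and 1.16 times. Some other markers differed more in RNA-seq, with 2.08 times as much of the intercalated cell exchanger Slc4a1, 2.12 of Hba-a1 and 1.46 of the endothelial Emcn in replicate 2, and 0.303 times as much of Alb and 0.19 of Apoa1, which mark liver. The other intercalated markers differed less, Atp6v1g3 at 1.10 and Slc26a4 at 1.07 times. So did the other endothelial markers, Kdr at 0.96 and Pecam1 at 1.16 times. Over all genes tested the SD of the log2 difference between replicates in RNA-seq was widest at ZT10, at 0.38, against 0.23 to 0.35 at the other timepoints. In RPF-seq it was widest at ZT04, at 0.51. Values without this pool are given beside results of Calb1, S100g, Slc8a1, Trpm6, Trpm7, Casr and Umod. S100g in RNA-seq was the only result of the 10 genes whose pass of the later FDR test changed without it.

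The first question was how much of each gene is made into footprints. The translation efficiency (TE) is the RPF-seq RPKM of a gene divided by its RNA-seq RPKM in the same pool, and the median log2 TE of all genes tested was -0.07. Of the 10 genes, 4 had a mean above it and 6 below. The cytosolic calcium buffers led the order, Calb1 with a mean log2 TE of 0.88 ± 0.27 (SD over 24 pools) and S100g with 0.85 ± 0.29. Calb1 was above S100g in 14 of 24 pools, so these neighbours did not separate. Umod followed with 0.62 ± 0.12, below S100g in 16 of 24 pools and above Trpv5 in all 24. Trpv5 stood close to the median of all genes, at 0.13 ± 0.19. The pump Atp2b1, at -0.47 ± 0.12, came after Trpv5 in all 24 pools.

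The lower part of the order held the magnesium genes, the exchanger and the receptor. Cnnm2, at -0.74 ± 0.13, and Slc8a1, at -0.86 ± 0.11, lay close together, with Cnnm2 higher in 18 of 24 pools. Casr reached -1.21 ± 0.12 and was below Slc8a1 in all 24 pools. The related channels Trpm6, at -1.54 ± 0.23, and Trpm7, at -2.20 ± 0.31, ended the order, and Trpm6 was the higher of the pair in 23 of 24 pools. Trpm7 stood at the 2.58th percentile of TE among all genes tested and Calb1 at the 92.9th.

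**Figure D1:**
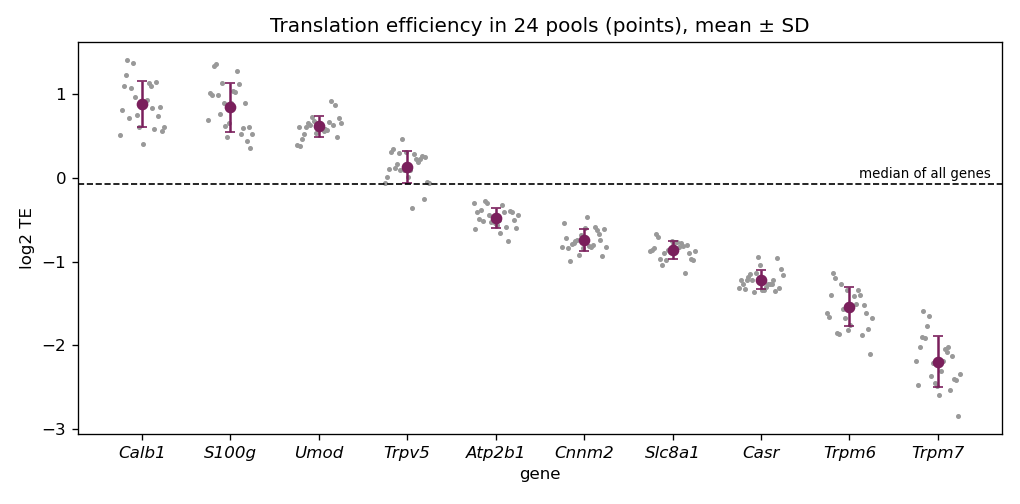
Log2 translation efficiency (vertical axis) of the 10 genes (horizontal axis), with grey points for the 24 pools, filled circles and bars for the mean ± SD, and a dashed line for the median of all genes tested. Calb1, S100g and Umod lie above the line in all 24 pools, and the 6 genes from Atp2b1 to Trpm7 lie below it in all 24.

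Across all genes tested, longer coding sequences went with lower TE, with a Spearman rho of -0.41 over 11787 genes with an annotated coding length. This is a description across genes, which are not independent replicates. The median log2 TE was 0.31 for coding sequences under 900 nt, 0.05 from 900 to 1800 nt, -0.29 from 1800 to 3000 nt and -0.74 from 3000 nt. S100g, with 237 nt of coding sequence, and Calb1, with 783 nt, were above the median of the shortest class. In the class from 1800 to 3000 nt, Umod, with 1926 nt, and Trpv5, with 2169 nt, were above the median, and Cnnm2, with 2625 nt, and Slc8a1, with 2910 nt, below it. Trpm6 and Trpm7, with 6084 and 5589 nt, were the longest and lay below the median of the longest class, while Atp2b1, with 3660 nt, lay above it.

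The bases around the start codon are shown in the order of TE because this is where ribosomes begin each of these proteins. They were read from a GENCODE vM21 transcript whose coding length equals the one behind the deposited values, the principal and then the longest isoform where several had that length (as for Slc8a1, Casr and Umod), run from 9 bases before the start codon to 7 after it, and carry the start codon in capitals.
Calb1: tgcaccacgATGgcagaat
S100g: gccagcaaaATGtgtgctg
Umod: gtgtaaaggATGgggatcc
Trpv5: caagaagacATGggggcta
Atp2b1: atccttgtgATGggcgaca
Cnnm2: agccaccctATGattggct
Slc8a1: ttgtacaacATGcttcgat
Casr: ggcagagccATGgcatggt
Trpm6: gtggtgagaATGcaggtca
Trpm7: gtgaggagaATGtcccaga
A purine stood 3 bases before the start codon in 9 of 10, all but Cnnm2, against 87.1% of 11493 tested genes with a readable start. A G directly after the start codon was present in 5 of 10, namely Calb1, Umod, Trpv5, Atp2b1 and Casr, against 53.4% of those genes. S100g, whose TE was among the highest of the 10, had a T there, as did Trpm7, whose TE was the lowest. At least 1 further ATG lay in the annotated leader of 7 of 10 genes, against 49.9% of the genes, and the 3 without one were Calb1, S100g and Trpm6. For the genes compared, the principal isoform with the longest coding sequence was read. The transcripts of the 10 genes were chosen by another rule, given above, so the shares are not strictly alike. The start sites used in these kidneys were not measured here.

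The next question was whether the genes change over the day. A 24-h cosine was fitted to log2(RPKM + 0.1) of each gene over the 24 libraries of an assay and tested with the moderated F test of limma, and a gene was called where the FDR (Benjamini-Hochberg over all genes tested) was under 0.05 and the fitted peak was at least 1.5-fold above the trough. In RNA-seq 5 of 10 genes passed the FDR, Calb1, Slc8a1, Atp2b1, Trpm6 and Umod, where 48.6% of all genes did. Without pool 2 at ZT10 S100g passed too, which makes 6. Only Calb1 of the 10 was called with the fold cutoff as well, where 10.2% of all genes were. In RPF-seq 5 of 10 passed the FDR, S100g, Slc8a1, Atp2b1, Trpm7 and Umod, where 30.9% of all genes did, and Slc8a1 was the only call with the fold cutoff, where 7.58% of all genes were called. The median fitted fold of the 10 genes was 1.20 in RNA-seq and 1.27 in RPF-seq, against 1.20 and 1.18 over all genes. Of the 5 genes past the FDR in RNA-seq, 4 peaked between ZT20 and ZT02, in the late night and around lights-on, and Umod peaked earlier in the night. The timepoints set side by side for a gene are those with its lowest and highest mean, so they were picked from its values.

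**Figure D2:**
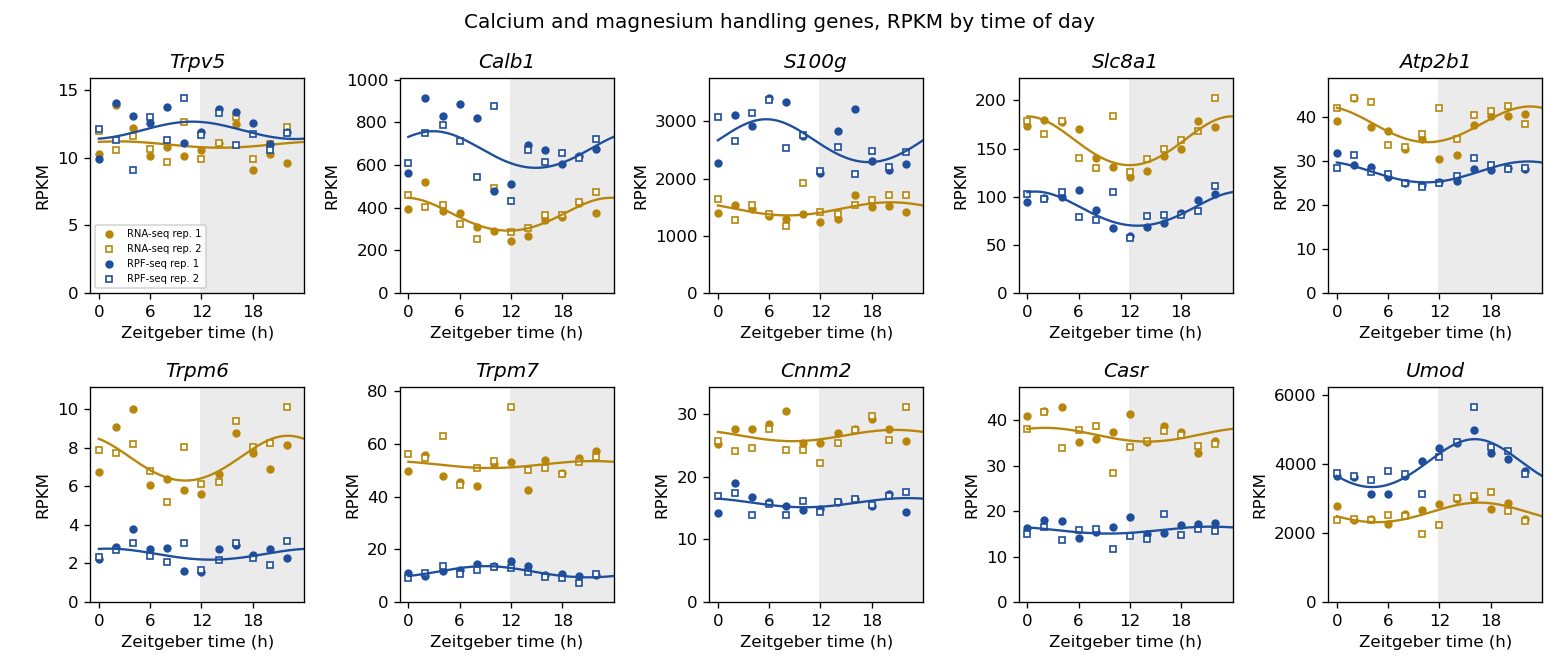
RPKM (vertical axis, from 0) against Zeitgeber time (horizontal axis, h) for the 10 genes, RNA-seq in ochre and RPF-seq in blue, filled circles for replicate 1, open squares for replicate 2, lines for the fitted 24-h cosine and grey for the dark phase. The RNA-seq curves of Calb1 and Slc8a1 reach their trough near ZT12, whereas the Umod curves peak near ZT16.

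The entry channel gene Trpv5 (ENSMUSG00000036899, GRCm38 chromosome 6, 41652173 to 41680769, minus strand) stood at the 38.3rd percentile of level among all genes tested in RNA-seq and the 47.3rd in RPF-seq. It ran from 9.07 to 13.9 RPKM with a median of 10.8 RPKM in RNA-seq, and from 9.09 to 14.4 RPKM with a median of 11.9 RPKM in RPF-seq. No rhythm passed the test in either assay. The fitted folds were 1.04 (log2 0.06 ± 0.09 SE, adjusted p = 0.84) and 1.11 (log2 0.15 ± 0.09 SE, adjusted p = 0.39) by limma. In RNA-seq this was the 4.13th percentile of fitted fold among all genes tested.

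Calb1 (ENSMUSG00000028222, chromosome 4, 15881264 to 15908064, plus strand) encodes the main calcium buffer of the distal nephron. In RNA-seq it ran from 243 RPKM in replicate 1 at ZT12 to 519 RPKM in replicate 1 at ZT02, with a median of 372 RPKM. The ZT12 pools, at 243 and 287 RPKM, lay below the ZT02 pools, at 519 and 405 RPKM, with no overlap. The fitted fold was 1.53 (log2 0.61 ± 0.12 SE, adjusted p = 0.00051 by limma), with the peak at ZT23.7 ± 0.72 h. Without pool 2 at ZT10 the fold was 1.67 (adjusted p = 6.6e-07). It fell under the cutoff, to between 1.473 and 1.495, without replicate 1 at ZT02, ZT12 or ZT14 or replicate 2 at ZT08, and the adjusted p was at most 0.0018 with any 1 library left out.

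As measured, the Calb1 footprints took another course than the transcript, and the test of this is given with the TE. They ran from 431 RPKM at ZT12 to 915 RPKM at ZT02, with a median of 669 RPKM. Their timepoint means were 588 RPKM at ZT00 and 833 RPKM at ZT02, then 798 RPKM at ZT06 and 685 RPKM at ZT08, when the transcript had already fallen to 349.6 and 283 RPKM. The fitted fold of 1.29 (log2 0.37 ± 0.14 SE) did not pass the test (adjusted p = 0.10, limma), and the 2 ZT10 pools, at 477 and 878 RPKM, were nearly as far apart as the extremes of the series. Without pool 2 at ZT10 the fold was 1.32 (adjusted p = 0.055).

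S100g (ENSMUSG00000040808, chromosome X, 162961992 to 162964599, minus strand), the small calbindin, was the more abundant of the buffers per length. Its transcript ran from 1164 to 1918 RPKM with a median of 1444 RPKM, with a fitted fold of 1.17 that did not pass the test (adjusted p = 0.10 by limma). This rests on 1 library, since without pool 2 at ZT10 the fold was 1.24 and passed the FDR (adjusted p = 0.0038, limma), with the peak at ZT20.7. Its footprints ran from 2078 to 3409.9 RPKM with a median of 2604 RPKM. The pools at ZT06, at 3409.9 and 3368 RPKM, lay above those at ZT12, at 2105 and 2131 RPKM, and the groups did not overlap. The fitted fold in RPF-seq was 1.33 (log2 0.41 ± 0.11 SE, adjusted p = 0.015, limma) with the peak at ZT5.7 ± 1.0 h. With timepoint as a factor in place of the cosine it did not pass (adjusted p = 0.13, limma). The comparison of the assays within pools is given with the TE. The gene lies within the span of Ctps2 on the other strand, but none of its coding bases overlap an annotated exon of that gene.

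Slc8a1 (ENSMUSG00000054640, chromosome 17, 81373105 to 81738377, minus strand), the exchanger that moves most of the calcium out of these cells, had the widest folds among the 3 genes that passed the FDR in both assays, the others being Atp2b1 and Umod. In RNA-seq it ran from 121 RPKM at ZT12 to 203 RPKM at ZT22 with a median of 162 RPKM. This gave a fitted fold of 1.38 (log2 0.47 ± 0.08 SE, adjusted p = 8.6e-05, limma), short of the cutoff, with the peak at ZT24.0 ± 0.62 h, and 1.45 (adjusted p = 3e-07) without pool 2 at ZT10. In RPF-seq it ran from 56.9 RPKM at ZT12 to 111 RPKM at ZT22 with a median of 86.0 RPKM, and the pools at ZT12, at 58.8 and 56.9 RPKM, lay below those at ZT22, at 103 and 111 RPKM. The fitted fold was 1.51 (log2 0.59 ± 0.10 SE, adjusted p = 0.00026, limma) with the peak at ZT0.9 ± 0.63 h. The footprint peak came 0.94 ± 0.88 h (SE) after the transcript peak, which is little more than 1 SE. The SE of a difference between peaks, here and below, takes the assays as independent, although they come from the same pools.

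The Slc8a1 call in RPF-seq sat at the fold cutoff. It fell under the cutoff, to as low as 1.45, without any 1 of replicate 1 at ZT06, ZT10, ZT12, ZT14 or ZT22 or replicate 2 at ZT04, ZT12 or ZT22, with adjusted p of at most 0.00083, and rose to 1.58 without pool 2 at ZT10. Its FDR therefore held with each library left out in turn, while its place above the cutoff did not. Of its coding bases, 8 lie under an exon of another annotated gene.

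Atp2b1 (ENSMUSG00000019943, chromosome 10, 98914406 to 99026143, plus strand), a plasma membrane calcium pump made in many cell types, changed little. It ran from 30.6 to 44.5 RPKM with a median of 38.9 RPKM in RNA-seq and from 24.3 to 32.0 RPKM with a median of 28.1 RPKM in RPF-seq. Its transcript had a fitted fold of 1.24 (log2 0.31 ± 0.07 SE, adjusted p = 0.0032, limma) with the peak at ZT22.6 in RNA-seq. In RPF-seq it was 1.19 (log2 0.25 ± 0.05 SE, adjusted p = 0.0014, limma) with the peak at ZT22.4. These peaks differed by 0.25 ± 1.15 h (SE), RPF-seq being the earlier. With timepoint as a factor neither passed by limma (adjusted p = 0.072 in RNA-seq and 0.069 in RPF-seq).

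Among the magnesium genes, Trpm6 (ENSMUSG00000024727, chromosome 19, 18749983 to 18892511, plus strand) ran from 5.20 RPKM at ZT08 to 10.1 RPKM at ZT22 with a median of 7.70 RPKM in RNA-seq. Its fitted fold was 1.36 (log2 0.45 ± 0.12 SE, adjusted p = 0.012, limma) with the peak at ZT22.1 ± 1.0 h, and 1.43 (adjusted p = 0.0038, limma) without pool 2 at ZT10. Its footprints were the sparsest of the list, from 1.53 to 3.80 RPKM with a median of 2.55 RPKM. They gave a fitted fold of 1.248 with a wide error (log2 0.32 ± 0.17 SE, adjusted p = 0.31, limma), so a rhythm of the size seen in the transcript was within the error of the footprints.

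Trpm7 (ENSMUSG00000027365, chromosome 2, 126791565 to 126876230, minus strand) showed the reverse. Its transcript ran from 42.6 to 74.1 RPKM with a median of 52.8 RPKM, the highest value being replicate 2 at ZT12 against 53.1 RPKM in replicate 1. No rhythm of the transcript passed the test (fold 1.052, adjusted p = 0.80, limma). Its footprints ran from 7.40 RPKM at ZT20 to 15.6 RPKM at ZT12 with a median of 11.0 RPKM. The fitted fold in RPF-seq was 1.45 (log2 0.53 ± 0.09 SE, adjusted p = 0.00038, limma) with the peak at ZT9.0 ± 0.65 h, late in the light phase.

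Cnnm2 (ENSMUSG00000064105, chromosome 19, 46761596 to 46880192, plus strand) kept to a narrow band, from 22.2 to 31.1 RPKM with a median of 26.4 RPKM in RNA-seq and from 13.9 to 19.0 RPKM with a median of 15.96 RPKM in RPF-seq. Neither fitted fold passed the test, at 1.07 (adjusted p = 0.47) and 1.10 (adjusted p = 0.29) by limma.

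In the thick ascending limb, the receptor gene Casr (ENSMUSG00000051980, chromosome 16, 36493696 to 36562141, minus strand) ran from 28.4 to 42.9 RPKM with a median of 36.9 RPKM in RNA-seq. In RPF-seq it ran from 11.7 to 19.4 RPKM with a median of 15.9 RPKM. The lowest value in each assay was replicate 2 at ZT10. The fitted folds of 1.09 (adjusted p = 0.39) and 1.10 (adjusted p = 0.45) by limma did not pass the test. Without pool 2 at ZT10 they were 1.07 (adjusted p = 0.37) and 1.05 (adjusted p = 0.78) by limma.

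Umod (ENSMUSG00000030963, chromosome 7, 119462711 to 119479282, minus strand) was the most abundant of the 10 genes and the one with a peak in the first part of the night. In RNA-seq it ran from 1978 RPKM at ZT10 to 3194 RPKM at ZT18 with a median of 2534 RPKM. Its fold between fitted peak and trough was 1.245 (log2 0.32 ± 0.08 SE, adjusted p = 0.0071, limma), with the peak at ZT16.7 ± 0.96 h. Without pool 2 at ZT10 the fold was 1.24 (adjusted p = 0.0019, limma) and the peak at ZT15.8. With all 24 libraries, the rhythm of the transcript did not pass under quantile normalisation (fold 1.147, adjusted p = 0.056, limma) or with timepoint as a factor (adjusted p = 0.11, limma). In RPF-seq it ran from 3142 RPKM at ZT04 to 5668 RPKM at ZT16 with a median of 3801 RPKM. The ZT04 pools, at 3142 and 3543 RPKM, lay well below the ZT16 pools, at 5007 and 5668 RPKM.

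The fitted fold of Umod in RPF-seq was 1.42 (log2 0.50 ± 0.07 SE, adjusted p = 3.8e-05, limma), with the peak at ZT16.1 ± 0.54 h. Peaks in the assays differed by 0.53 ± 1.10 h (SE), which is within the error. The summed level of the 3 thick ascending limb markers ran from 603 to 756 RPKM in RPF-seq, with a fitted fold of 1.096 and a peak at ZT16.8, and in RNA-seq it had a fold of 1.17 and a peak at ZT20.5. In RPF-seq the summed markers of principal cells (fold 1.54) and of liver (fold 2.07) both peaked at ZT15.6, near Umod. Of the principal cell markers, Aqp2 alone had a fold of 1.665, whereas Scnn1b and Scnn1g had folds of 1.20 and 1.18. The part of any of these markers in the Umod course was not tested. The TE of Umod gave a fitted fold of 1.14 that did not pass the test (adjusted p = 0.11, limma). Of the coding bases of its annotated isoforms, 241 lie under exons of another annotated gene, and whether counting used the strand is not given in the sources used here.

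**Figure D3:**
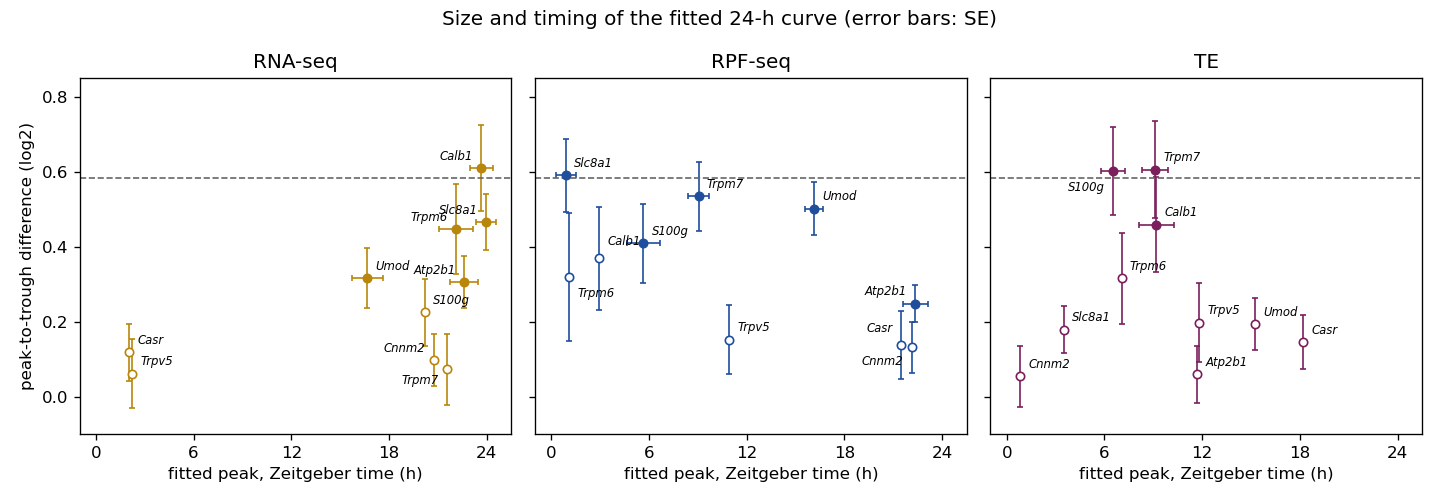
Log2 difference between fitted peak and trough (vertical axis) against the fitted peak time (horizontal axis, h) for the 10 genes in RNA-seq, RPF-seq and TE, with bars for the SE, filled circles for an FDR under 0.05 and a dashed line at a fold of 1.5. Filled RNA-seq points lie between ZT16.7 and ZT24.0, whereas the filled TE points lie at ZT6.5 to ZT9.2.

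The rhythm of the TE tests whether footprints and transcript change differently over the day within the same pools. It passed the FDR for 3 of 10 genes, S100g, Trpm7 and Calb1, where 17.1% of all genes did. For S100g the TE ran from 1.28 in replicate 2 at ZT20 to 2.58 in replicate 1 at ZT08 with a median of 1.86. The pools at ZT06, at 2.52 and 2.43, lay above those at ZT20, at 1.41 and 1.28. The fitted fold was 1.52 (log2 0.60 ± 0.12 SE, adjusted p = 0.0055, limma) with the peak at ZT6.5 ± 0.74 h. Under quantile normalisation it was 1.42 (adjusted p = 0.022), and without pool 2 at ZT10 it was 1.59 (adjusted p = 0.0012).

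The TE of Trpm7 ran from 0.139 in replicate 2 at ZT20 to 0.331 in replicate 1 at ZT08 with a median of 0.217. Of the 12 pools from ZT04 to ZT14, 11 lay above the median of all 24 and 1 of the other 12 did. This window surrounds the peak fitted to the same values, so the count describes that fit and adds no support to it. The fitted fold was 1.52 (log2 0.61 ± 0.13 SE, adjusted p = 0.0088, limma) with the peak at ZT9.1 ± 0.81 h. Without pool 2 at ZT10 the fold was 1.54 (adjusted p = 0.011). Replicates at ZT08 were apart, at 0.331 and 0.237.

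The TE of Calb1 ran from 1.32 in replicate 2 at ZT00 to 2.66 in replicate 1 at ZT08 with a median of 1.80. The timepoint means rose from 1.38 at ZT00 to 2.40 at ZT08, dropped to 1.72 at ZT10 and stood at 2.41 at ZT14. The rhythm of its TE had a fitted fold of 1.37 (log2 0.46 ± 0.13 SE, adjusted p = 0.038, limma) with the peak at ZT9.2 ± 1.1 h, and of 1.42 (adjusted p = 0.027) without pool 2 at ZT10. This call was the least firm of the set: it was lost, with adjusted p up to 0.086, when any 1 of 10 pools was left out, which were replicate 1 at ZT00, ZT06, ZT08, ZT12 or ZT20 and replicate 2 at ZT00, ZT06, ZT08, ZT20 or ZT22. With timepoint as a factor in place of the cosine, which spends more degrees of freedom, none of the 3 genes passed by limma (adjusted p = 0.073 for S100g, 0.078 for Calb1 and 0.26 for Trpm7), nor did any when 1 of the replicate series was used alone. The TE rhythms of the other 7 genes did not pass the test, and Slc8a1 (fold 1.13, adjusted p = 0.11) and Trpm6 (fold 1.24, adjusted p = 0.15) by limma had fitted peaks at ZT3.5 and ZT7.1.

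**Figure D4:**
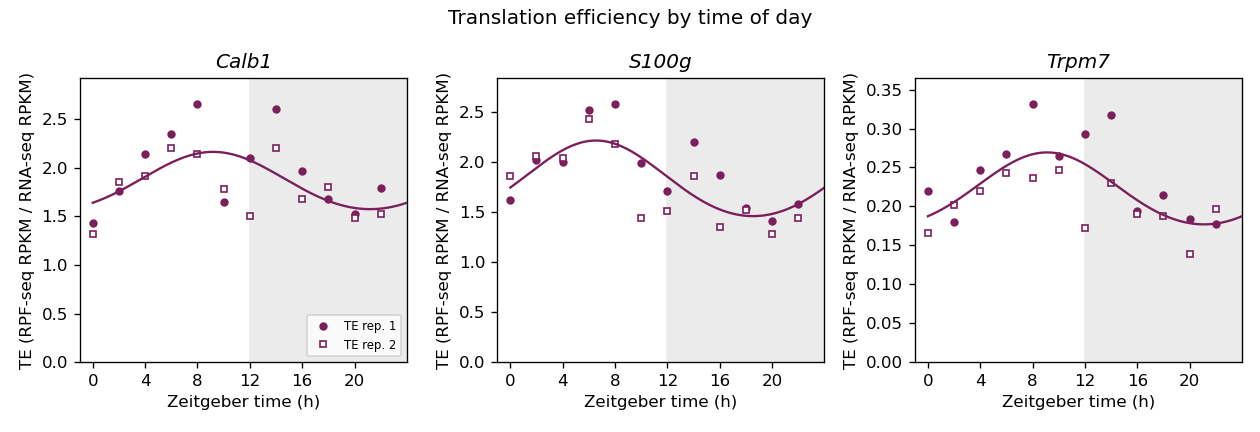
Translation efficiency (vertical axis, RPF-seq RPKM over RNA-seq RPKM, from 0) against Zeitgeber time (horizontal axis, h) for Calb1, S100g and Trpm7, with filled circles for replicate 1, open squares for replicate 2, lines for the fitted 24-h cosine and grey for the dark phase. S100g and Trpm7 were lowest at ZT20, whereas Calb1 was lowest at ZT00.

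As measured, the transcripts of Calb1 and Slc8a1 moved most closely together from pool to pool. Those of S100g, Trpm6, Atp2b1 and Trpv5 followed them less closely. By Pearson r over the 24 RNA-seq libraries, the gene nearest to Calb1 among all genes tested was Slc8a1 (r = 0.94, Spearman rho = 0.96), followed by Serpinb9 (r = 0.87, rho = 0.88) and Msh6 (r = 0.85, rho = 0.82). With the fitted 24-h curves taken off, Calb1 and Slc8a1 still had r = 0.88, and Calb1 and S100g r = 0.87. Without pool 2 at ZT10 these came to 0.70 and 0.72. As measured, Calb1 had r = 0.74 with S100g, 0.74 with Trpm6, 0.71 with Atp2b1 and 0.50 with Trpv5. Slc8a1 had 0.62 with S100g, 0.69 with Trpm6 and 0.61 with Atp2b1. With the curves taken off, Slc8a1 and S100g had r = 0.78, and 0.53 without pool 2 at ZT10. Atp2b1, with the curves taken off, had r = 0.45 with Calb1 (0.53 without that pool), 0.21 with Slc8a1 and 0.15 with Trpv5. In RPF-seq, as measured, Calb1 had r = 0.72 with Slc8a1 and 0.80 with Trpm6, whereas Slc8a1 had 0.29 with S100g and -0.05 with Trpv5, and Atp2b1 -0.20 with S100g. These coefficients describe 24 pools that share a normalisation and, at each timepoint, a time of day.

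Trpv5 moved with some of these genes only. After removal of the 24-h curve, its transcript had r = 0.75 with Trpm6, 0.62 with Calb1 and 0.59 with S100g. This was not particular to the calcium and magnesium genes, as Trpv5 had 0.68 with Slc12a1, a marker of the thick ascending limb. The other markers of that segment had less, Cldn16 0.39 and Cldn10 0.11. Slc12a3 did not share the pattern, with r = -0.42 to Calb1 as measured and -0.07 after removal of the curve, whereas Pvalb, the other distal convoluted tubule marker on the list, had 0.63 and 0.55. The summed level of these 2 markers ran from 286 to 425 RPKM in RNA-seq, with a fitted fold of 1.13 and a peak at ZT13.7. Some markers of other cells moved with Calb1 and Slc8a1 after removal of the curve, but markers of 1 cell type differed. The intercalated cell gene Slc4a1 had r = 0.72 with Calb1 and 0.82 with Slc8a1 (0.49 and 0.68 without pool 2 at ZT10). The other intercalated markers had less, Atp6v1g3 0.32 and 0.29 and Slc26a4 0.13 and 0.24. The proximal tubule gene Slc22a6 had -0.76 and -0.66 (-0.64 and -0.45) and Slc34a1 -0.53 and -0.57. Of the same list, Lrp2 had -0.30 and -0.05 and Slc5a2 0.04 and -0.02. The part of cell content in the shared course of the calcium genes was not tested. The genes nearest to Slc8a1 in RPF-seq were Ncbp1 (r = 0.85), Gatm (r = 0.83) and Tstd2 (r = 0.82).

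Of 40 further genes of calcium and magnesium transport, 36 were tested, and Trpv6, Cldn14, Kcna1 and Calcr were not. In RNA-seq 21 of the 36 passed the FDR (48.6% of all genes) and 6 were called with the fold cutoff (10.2% of all genes). In RPF-seq 17 passed (30.9% of all genes) and 5 were called (7.58%), and in TE 7 passed the FDR (17.1% of all genes). Among the claudins, which line the path between the cells, Cldn10 peaked at ZT23.4 in RNA-seq with a fitted fold of 1.58 (adjusted p = 7.6e-08, limma). Cldn16, which with Cldn19 forms the pore for magnesium and calcium in the thick ascending limb, peaked at ZT14.4 with a fold of 1.53 (adjusted p = 3.8e-05, limma). Cldn19 passed only in RPF-seq and TE, with a fold of 1.70 in RPF-seq (adjusted p = 9.3e-05, limma) and a peak at ZT16.8, near that of Umod.

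Among the distal magnesium genes beside the 10, 2 transporters of the SLC41 family were called. The magnesium transporter Slc41a1 was called in RPF-seq with a fold of 1.62 (adjusted p = 0.0043, limma) and a peak at ZT8.7. Its transcript also passed the FDR, with a fold of 1.49 just short of the cutoff (adjusted p = 0.00048, limma), and its TE did not (adjusted p = 0.59, limma). Its relative Slc41a3 was called in RNA-seq with a fold of 1.54 (adjusted p = 0.012, limma). The largest folds of the 36 in RNA-seq were those of the vitamin D enzymes. Cyp24a1, which breaks down active vitamin D, had a fold of 5.37 in RNA-seq (adjusted p = 0.00011, limma) with a peak at ZT6.4, and Cyp27b1, which makes it, a fold of 2.59 (adjusted p = 0.0095, limma) with a peak at ZT10.4.

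Promoters are shown for the gene called in RPF-seq and for the pair with the widest TE rhythm, to set the transcript and footprint courses beside the sequence upstream. Each is the 250 bases before the RefSeq start on GRCm38.p6, on the strand of the gene: Slc8a1 from chr17:81738388-81738637, S100g from chrX:162964600-162964849 and Trpm7 from chr2:126876262-126876511, all on the minus strand. Capitals mark matches on either strand to 4 motifs chosen for clock and cyclic AMP control. These were the E-box CACGTG, the D-box TTATGTAA, AGGTCA and the cyclic AMP element TGACGTCA. AGGTCA is only the core of the ROR and REV-ERB element. The bases before it were not part of the match, so a match is not by itself a clock element.
Slc8a1: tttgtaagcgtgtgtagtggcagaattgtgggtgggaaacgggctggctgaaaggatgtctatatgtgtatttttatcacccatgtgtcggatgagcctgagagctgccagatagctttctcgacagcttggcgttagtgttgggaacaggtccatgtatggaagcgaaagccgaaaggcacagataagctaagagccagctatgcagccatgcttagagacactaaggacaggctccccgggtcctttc
S100g: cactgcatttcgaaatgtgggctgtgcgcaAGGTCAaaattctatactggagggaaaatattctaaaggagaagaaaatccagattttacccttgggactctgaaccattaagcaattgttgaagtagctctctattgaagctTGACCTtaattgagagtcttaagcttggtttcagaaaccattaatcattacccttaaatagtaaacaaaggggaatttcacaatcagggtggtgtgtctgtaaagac
Trpm7: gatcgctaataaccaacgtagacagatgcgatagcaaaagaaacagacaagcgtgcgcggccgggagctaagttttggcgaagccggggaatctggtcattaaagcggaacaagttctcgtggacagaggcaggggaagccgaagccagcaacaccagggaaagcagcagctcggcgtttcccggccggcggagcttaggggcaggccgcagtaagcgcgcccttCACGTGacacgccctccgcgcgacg
Slc8a1 held none of the 4 motifs in this window. S100g held AGGTCA starting 220 bases before the start and its reverse complement starting 107 bases before it, as 14.02% of 32851 promoters in the table hold at least 1 match. Trpm7 held an E-box starting 25 bases before the start, as 6.02% of promoters do, while its transcript had no rhythm that passed the test. The D-box and the cyclic AMP element were found in none of the 10 promoter entries of these genes, against 0.819% and 1.55% of all promoters. The entries cover 9 of the 10 genes, with 2 for Atp2b1 and none for Calb1.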

How the data were processed

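RPF-seq and RNA-seq were made from the same 24 kidney lysate pools, 48 libraries in all. Per the labels and methods, the authors trimmed reads with cutadapt, mapped them with Bowtie2 2.2.1 and TopHat2 2.0.11 to GRCm38.p2, took transcript models from Cufflinks 2.2.1, counted reads on coding sequences, normalised by upper quantiles in edgeR and deposited RPKM values. Such scaling hides a change in total mRNA or footprints. RPKM values are not counts, so log2(RPKM + 0.1) was used, for genes whose median reached 0.5 RPKM in RNA-seq as well as RPF-seq. For the 24-h test, limma 3.58.1 (R 4.3.3; eBayes with a variance trend) was fitted to all 24 libraries of an assay, or to the log2 TE of the 24 pools. Whole reads were recovered from RPKM and GENCODE vM21 coding lengths in Python 3.11.15; the rhythm test was tested on simulated data. Replicates are separate pools of animals.

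Named were all 10 genes, the further list where called (1 gene is not reported here), and the 3 genes nearest to each called gene. Members and lists were chosen with earlier results of these data known. RNA-seq and RPF-seq of the same pool deviated together (mean r = 0.24, over 0.1 at all 12 timepoints), which is why TE was taken within pools. Alternatives were other pseudocounts (1, 0.01), no RPKM minimum or a minimum of 2, quantile normalisation, a replicate block, an added 12-h harmonic, timepoint as a factor, selection by AIC, no variance trend, no fold cutoff, and leaving out each replicate and each pool.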

Additional observations from a re-analysis of the deposited data

Results flagged for a closer look

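Of the 10 genes, 3 differed in their 24-h course between RPF-seq and RNA-seq of the same pools, tested as a rhythm of the TE over 24 pools with limma (eBayes, Benjamini-Hochberg over all genes tested), where 17.1% of all genes did. S100g had an adjusted p of 0.0055, with a fitted TE fold of 1.52, and 8 of the 12 pools from ZT04 to ZT14 lay above the median of the series, as did 4 of the other 12. Trpm7 had an adjusted p of 0.0088, with a fitted TE fold of 1.52 and 11 of those 12 pools above the median, and 1 of the others. Calb1 had an adjusted p of 0.038, with a fitted TE fold of 1.37 and 9 of those 12 pools above the median, and 3 of the others. The window holds the TE peaks fitted to the same values for all 3 genes, so these counts describe the fits and add no support.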

How the results depend on the processing

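Counts of calls among the 10 genes were 1 (RNA-seq), 1 (RPF-seq) and 3 (TE). With timepoint as a factor these counts were 3, 3 and 0, without the fold cutoff 5 in RNA-seq and 5 in RPF-seq, with a 12-h harmonic added 2 in RPF-seq, with a pseudocount of 1 they were 0 in RPF-seq, where Slc8a1 came to a fold just short of the cutoff, and by AIC, which sets no FDR, 7 in TE. Leaving out replicate 1 or replicate 2 at all timepoints, which removes the replication within timepoints, gave 0 to 1, 0 to 1 and 0 calls. Leaving out 1 pool gave 0 to 1, 0 to 1 and 2 to 3. For the further genes, with 6, 5 and 7 calls, timepoint as a factor gave 10 in RNA-seq and 0 in TE, a 12-h harmonic 2 in TE and AIC 20 in TE, leaving out replicate 1 or 2 gave 3 to 8, 0 to 4 and 0 calls, and leaving out 1 pool 5 to 8, 4 to 5 and 4 to 10. Beyond the smaller number of samples where replicates or pools were left out, the cause was not tested. Of 1080 recomputed folds of the 10 genes, 34 lost a call and 9 gained a call.

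With a replicate block the counts stayed at 1, 1 and 3 for the 10 genes and at 6, 5 and 7 for the further genes. Over all genes, replicate numbers deviated together little on average across timepoints (mean r = 0.03 in RNA-seq, highest 0.48, over 0.1 in 13 of 66 pairs). They were therefore not taken to pair the samples. Among the 10 genes, replicate 1 was the higher in RNA-seq at 2 of 12 timepoints for Atp2b1, 3 for Calb1 and S100g, and up to 9 for Cnnm2. The adjusted p with 1 pool left out was at most 0.014 for the TE of S100g and 0.023 for that of Trpm7. For the Trpm6 footprints, the sparsest, the log2 peak-to-trough difference had an SE of 0.17.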

Other observations

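Among the further genes, the TE rhythms that passed the FDR included the parathyroid hormone receptor Pth1r, which sets calcium and phosphate transport in the tubule. Its TE was low, its fitted TE fold was 1.24 (adjusted p = 0.023 by limma, log2 0.31 ± 0.08 SE, 24 pools) and the peak fell at ZT16.7, while its transcript had a fitted fold of 1.07 (adjusted p = 0.28 by limma). The potassium channel gene Kcnj10, whose product keeps the basolateral membrane of the distal convoluted tubule polarised, had a fitted TE fold of 1.49 (adjusted p = 0.046 by limma) with a peak at ZT17.0. The claudin genes Cldn16 and Cldn19 had TE peaks at ZT4.2 and ZT17.7, with fitted TE folds of 1.496 (adjusted p = 0.017) and 1.54 (adjusted p = 0.0085) by limma, and the difference between the 2 genes was not tested.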
